A study of Mus musculus with 5 samples.

Results

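The embryonic limb macrophages described here were 1530 of 49801 kept cells in the forelimb and hindlimb libraries of a single cell RNA sequencing (scRNA-seq) series. They were chosen on measured values: a limb cell was a member when it held at least 1 UMI, a counted RNA molecule, of 4 or more of 8 genes, C1qa, C1qb, C1qc, Csf1r, Adgre1, Mrc1, Tyrobp and Fcer1g. A limb cell was kept with 100 to 9000 detected genes and at most 10% of its UMIs from mitochondrial genes. The members numbered 802 of 25865 kept cells in the forelimb, or 3.10% (95% exact binomial interval 2.89 to 3.32%), and 728 of 23936 in the hindlimb, or 3.04% (2.83 to 3.27%). All other kept limb cells, 48271 in number, served as their comparison. The whole series held 69434 kept cells.

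The series sampled developing limbs and, beside them, penises at the age when the penis bone starts to appear. The limb libraries, 1 of forelimb and 1 of hindlimb, came from male embryos at embryonic day 15, and the 3 penis libraries from males at postnatal day 6 with the prepuce removed. All mice had the C57BL/6N genotype per the labels, which name no transgene and no treatment, whereas the study's methods name C57BL/6J. Tissue was dissociated with enzymes at 37 °C, and no sort for a cell type is described. Several embryos were dissected, and how they were divided between libraries is not stated in the sources used here. With 1 forelimb and 1 hindlimb library, any difference between those limbs has no replicate check.

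Macrophages are phagocytes that settle in nearly every organ. The first arrive from the yolk sac and the fetal liver, before the bone marrow is active. They depend on signals through the receptor Csf1r, engulf dying cells, and digest them in lysosomes. They also secrete complement and chemokines. In developing limbs they are known for clearing the dying cells between the digits and around the skeletal condensations. Members of the same lineage fuse into osteoclasts once bone appears.

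The limb macrophages were deeply sampled. They held 6028683 UMIs in the forelimb and 5810935 in the hindlimb, which were 3.97% and 3.68% of all kept UMIs of those libraries. The median macrophage held 6632 UMIs in the forelimb and 7322 in the hindlimb, against 4683 and 5402 in the other limb cells. Levels below are UMIs of a gene per 1000000 UMIs (CPM), summed over the macrophages of a library, with 95% exact Poisson intervals. These intervals and the binomial ones cover counting error only, and say nothing of variation between embryos. Because a sum mixes the cells it holds, fewer cells with a gene and less of it per cell cannot be told apart, except where shares of cells are given. Forelimb and hindlimb shared 167 barcodes among their kept cells, and only 1 of these was a macrophage in both.

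The selection genes were detected together in most members. All 8 were present in 471 forelimb and 422 hindlimb macrophages, and 7 or 8 were present in 585 (72.9%) and 524 (72.0%). Only 56 and 49 cells held exactly 6 of them. Toward the threshold the cells changed in kind: 98 forelimb and 88 hindlimb cells held exactly 4 genes, just inside the rule, and 183 and 201 held 3, just outside it. Pf4, a platelet and macrophage chemokine outside the rule, stood at 2562 and 2395 CPM in cells with all 8 genes. It stood at 151 and 178 CPM in cells with 4, and at 23.4 and 52.8 CPM in cells with 3. Lyz2, the lysozyme of macrophages, monocytes and neutrophils, ran the other way, from 881 and 805 CPM in cells with 8 genes to 4331 and 4201 CPM in cells with 4. Plac8, a gene high in monocytes and granulocytes, stood at 16.1 and 23.5 CPM with 8 genes and at 705 and 816 CPM with 4. Cells with 3 held Cpa3, a mast cell protease, at 3795 and 3228 CPM. Members near the threshold held more Lyz2 and Plac8 than members with all 8 genes, and the main comparisons with penis are given with and without the cells that held fewer than 7.

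**Figure D1:**
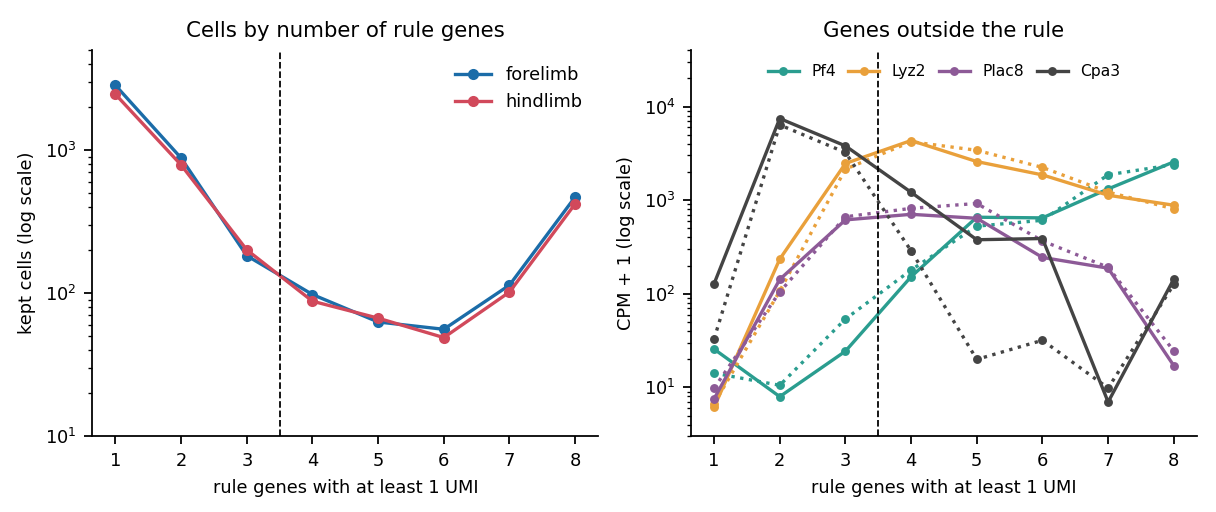
Kept limb cells by the number of the 8 selection genes with at least 1 UMI (left, log scale), and the level of 4 genes outside the rule in those cells, as CPM plus 1 on a log scale (right). Solid lines on the right are forelimb, dotted lines hindlimb, and the dashed vertical line marks the threshold of 4 genes; cells holding 8 genes form a second peak of 471 and 422 cells, Pf4 is high where 7 or 8 genes are held, Cpa3 peaks at 2 genes and Plac8 at 4 or 5.

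The selection genes themselves describe the members and carry no test. C1qa, C1qb and C1qc encode the 3 chains of C1q, the complement component that tags debris and dying cells. C1qa stood at 1188 CPM in forelimb and 1197 CPM in hindlimb macrophages, against 1.32 and 1.18 CPM in the other limb cells, and the macrophages held 97.4% and 97.5% of all its UMIs. C1qb stood at 1863 and 1850 CPM, and C1qc at 1177 and 1182 CPM. Csf1r, the receptor for the macrophage growth factors, stood at 492 and 543 CPM, and Adgre1, the F4/80 antigen, at 285 and 284 CPM. Mrc1, the mannose receptor, stood at 1443 and 1478 CPM. Tyrobp and Fcer1g, signalling adaptors shared by many blood cells, stood at 1347 and 1362 CPM and at 1815 and 1765 CPM. For these 2 adaptors the other limb cells were not empty, at 52.1 and 50.01 CPM and at 77.6 and 72.6 CPM. The macrophages held 51.7% and 51.0% of all Tyrobp UMIs and 49.2% and 48.1% of all Fcer1g UMIs.

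The 3 C1q genes lie side by side on the minus strand of chromosome 4, in the GRCm38 (mm10) build, and span 18.68 kb. C1qb lies at chr4:136880129-136886187, C1qc at chr4:136889804-136893065 and C1qa at chr4:136895917-136898803. Stretches of 300 bases around the transcript start, from 250 before it to 50 after, were available for C1qb and C1qc from RefSeq (GRCm38.p6). Each held the 7 letters AGGAAGT, a core bound by the ETS family of factors to which the macrophage regulator Spi1 (PU.1) belongs, read on the reverse strand as ACTTCCT. The first of these letters lay 53 bases before the start in C1qb and 195 bases before it in C1qc. The start meant here is that of the RefSeq stretch, and for both genes it differs from the gene coordinates given above. The letters occur on either strand in 9.351% of all 32851 such stretches, and a match is only a description of the sequence. Of the 8 selection genes 4 had such a stretch, and 3 of these, C1qb, C1qc and Mrc1, held it. The 2 C1q stretches are shown because these genes are neighbours within the rule, with capitals on the match. C1qb is from chr4:136886151-136886450 and C1qc from chr4:136892865-136893164, both written 5′ to 3′ on the minus strand.
C1qb: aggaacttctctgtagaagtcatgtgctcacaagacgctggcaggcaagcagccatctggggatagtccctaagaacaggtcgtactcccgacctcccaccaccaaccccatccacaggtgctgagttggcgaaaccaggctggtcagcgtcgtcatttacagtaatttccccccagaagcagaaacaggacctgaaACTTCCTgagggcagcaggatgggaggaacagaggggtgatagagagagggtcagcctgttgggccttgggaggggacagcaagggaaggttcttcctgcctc
C1qc: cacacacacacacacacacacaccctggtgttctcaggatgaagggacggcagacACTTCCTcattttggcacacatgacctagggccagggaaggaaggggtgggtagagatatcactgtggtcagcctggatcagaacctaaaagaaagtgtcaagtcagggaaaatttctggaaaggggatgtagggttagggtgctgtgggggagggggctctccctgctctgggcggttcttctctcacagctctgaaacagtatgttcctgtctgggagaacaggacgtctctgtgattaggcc

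Genes were then compared with the other limb cells. Of 1700 genes at 100 CPM or more in the macrophages of both limbs, the 8 selection genes included, 230 (13.5%) stood at least 4-fold above the other limb cells in both libraries. Folds here were taken with 5 CPM added to both levels. They are descriptions, because the members were chosen on genes of the same cells. Counts of gene groups below give, in the same way, the members at 100 CPM or more in both limbs and how many of those were at least 4-fold above. Of 24 macrophage genes kept apart from the rule, 21 reached 100 CPM and 20 of these were 4-fold above, and all 24 were above the other cells, with a median of 20.7 for the lesser of both folds, against 0.988 over all genes.

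Pf4 led the genes outside the rule. It stood at 1949 CPM (1914 to 1984) in the forelimb and 1937 CPM (1901 to 1973) in the hindlimb, against 7.22 and 5.2 CPM in the other cells, which gave folds of 160 and 190. Macrophages held 91.8% and 93.4% of all Pf4 UMIs of the limb libraries, although the gene is best known from platelets. Other megakaryocyte genes were low, at a summed 9.12 and 6.54 CPM over 7 genes. Apoe, the main apolipoprotein of macrophages, stood at 8395 and 8397 CPM against 60.6 and 51.4 CPM. It was detected in 98.5% of forelimb and 98.9% of hindlimb macrophages. F13a1, a subunit of coagulation factor XIII, stood at 895 and 986 CPM, and Fcrls, an Fc receptor-like gene of resident macrophages and microglia, at 415 and 388 CPM. Trem2, a lipid-sensing receptor that signals through Tyrobp, stood at 268 and 276 CPM against 0.851 and 0.873 CPM.

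Of the 30 genes with the greatest folds, 6 were chemokines, Pf4 among them. Cxcl2, which attracts neutrophils, stood at 1907 CPM in the forelimb and 1730 CPM in the hindlimb against 11.3 and 9.19 CPM in the other cells. Ccl2, which attracts monocytes, stood at 1050 and 776 CPM, and its neighbour Ccl7 at 348 and 277 CPM. Ccl3 stood at 488 and 480 CPM and Ccl4 at 691 and 624 CPM, and Ccl3 was detected in 53.2% and 53.0% of the macrophages. Of 23 chemokines and receptors, 10 reached 100 CPM in both limbs, and all 10 stood at least 4-fold above the other cells. Tnf, the inflammatory cytokine, stood at 191 and 180 CPM and Il1b at 218 and 182 CPM, against at most 4.99 CPM elsewhere. Il10, which restrains inflammation, stood at 73.7 and 69.5 CPM against 10.5 and 10.5 CPM. Immediate early and heat shock genes, which respond quickly to enzymatic dissociation, reached 100 CPM in 16 of 20 cases, of which 2 were at least 4-fold higher, and the median lesser fold over the 20 was 0.952. The part of dissociation in the chemokine levels was not tested.

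Genes of uptake and digestion were measured next. Of 28 lysosomal genes 24 reached 100 CPM, 18 of these stood at least 4-fold above the other limb cells, and 27 of the 28 were above them. The cathepsins are lysosomal proteases: Ctsb stood at 1542 and 1557 CPM against 93.0 and 80.5 CPM, and Ctss at 382 and 388 CPM against 7.51 and 6.57 CPM. Lgmn, the lysosomal protease legumain, stood at 801 and 821 CPM. Of 20 receptors and bridging proteins for dying cells, 8 reached 100 CPM and 6 of these were 4-fold above. Among them Stab1, which binds phosphatidylserine, stood at 492 and 487 CPM, and Gas6, a bridge between dying cells and the TAM receptors, at 232 and 225 CPM. Of the TAM receptors, Mertk stood at 70.7 and 85.4 CPM against 28.2 and 34.9 CPM, and Axl at 38.0 and 42.9 CPM was below the other cells, at 52.8 and 47.6 CPM. Cd36, a scavenger receptor, stood at 320 and 355 CPM. Hmox1, which breaks down haem, stood at 371 and 289 CPM, and Slc40a1, the iron exporter, at 112 and 117 CPM, against 10.9 and 9.02 CPM and 7.62 and 8.87 CPM.

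The transcription factors of the lineage were measured as well. Spi1 stood at 327 and 310 CPM against 8.22 and 6.99 CPM, Maf at 678 and 757 CPM, and Runx1, also a factor of cartilage and bone, at 680 and 711 CPM against 102 and 114 CPM. Of 18 factors of the lineage 7 reached 100 CPM and 5 of these were 4-fold above. Of 18 Fc receptors and adaptors, which link antibodies to engulfment, 9 reached 100 CPM and all 9 were 4-fold above. These 9 include Tyrobp and Fcer1g, on which the members were chosen. Of 18 Toll-like receptors and NF-kB partners, 8 did, again all 4-fold above. Of 25 growth factors 4 reached 100 CPM and 2 were 4-fold above, and the median lesser fold over the 25 was 0.835. Igf1 stood at 218 and 229 CPM against 262 and 222 CPM in the other cells, and Vegfa at 23.4 and 20.3 CPM against 60.9 and 59.4 CPM. Tgfb1, which restrains inflammation, stood at 186 and 190 CPM against 28.1 and 29.0 CPM.

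**Figure D2:**
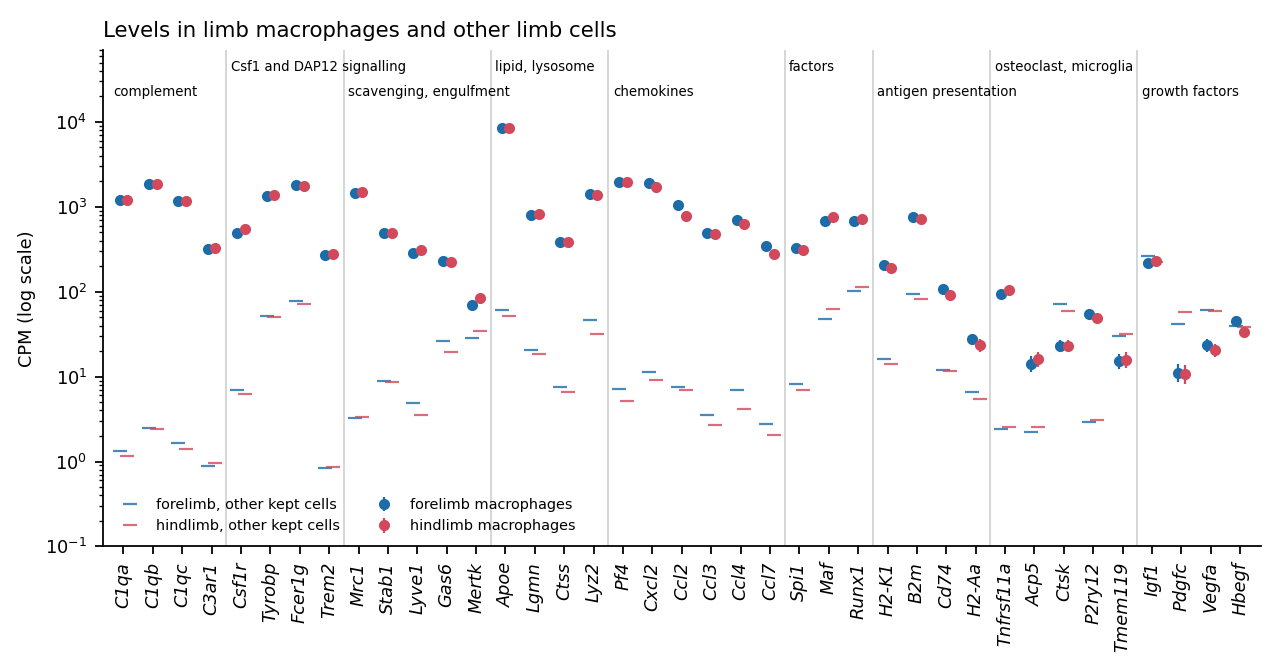
Levels of 39 genes, grouped by role, as CPM on a log scale in the limb macrophages (dots with 95% exact Poisson intervals, forelimb blue, hindlimb red) and in all other kept cells of the same library (dashes). Complement, chemokine, lipid and lysosomal genes sit far above the dashes, while Igf1, Vegfa, Ctsk and Tmem119 sit at or below them.

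The label was checked against markers of related cells. None of 12 osteoclast genes and none of 7 microglia genes reached 100 CPM in both limbs. The summed osteoclast level was 193 and 212 CPM, and the summed microglia level was 137 and 136 CPM against 42.4 and 45.1 CPM in the other cells. Of 9 monocyte genes 2 reached 100 CPM in both limbs and 1 of these was 4-fold above, with a summed level of 418 and 473 CPM against 427 and 473 CPM in the other cells. The equal sums hide differences by gene, as 6 of the 9 were above the other cells in both limbs. Their median lesser fold over the 9 was 1.77, and Plac8 and Ccr2 are given by cluster below. The summed level of 7 dendritic cell genes, none of which reached 100 CPM, was 45.5 and 43.4 CPM against 10.7 and 10.8 CPM. The osteoclast receptor Tnfrsf11a (RANK) stood at 93.9 and 105 CPM, but Ocstamp, needed for osteoclast fusion, stood at 0.995 and 0.688 CPM and Calcr, the calcitonin receptor, at 1.16 and 0.344 CPM. Ctsk, the osteoclast collagenase, stood at 23.1 and 23.1 CPM, below the other cells at 71.5 and 59.3 CPM. Sall1, a microglial factor, stood at 0.995 and 1.89 CPM, and P2ry12, a receptor best known from microglia, at 54.4 and 48.7 CPM, which was 7.50-fold and 6.67-fold above the other cells. The resident receptors Cd209f and Vsig4 were at 0 in both limbs and at 0.332 and 0.516 CPM. Cd209f at 0 of 6028683 and of 5810935 UMIs allows up to 3 UMIs per library. The T cell gene Cd3e was at 0 as well. Of 7 neutrophil genes Ly6g was at 0, but their summed level was 142 and 245 CPM against 69.0 and 75.6 CPM in the other cells. S100a8 stood at 74.6 and 111 CPM and S100a9 at 29.0 and 104 CPM. Of 7 mast cell genes 2 reached 100 CPM in both limbs and none was 4-fold above. Their summed level was 763.5 and 317.5 CPM, against 1357 and 1119 CPM in the other cells.

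RNA of other lineages was present. A cell with at least 2 UMIs of each of 3 or more genes of another lineage list was counted as a hit. Mesenchyme hits made up 16.8% of forelimb and 17.0% of hindlimb macrophages, against 61.8% and 63.2% of the other cells. Red blood cell hits made up 30.5% and 31.5%, against 36.5% and 33.5%. Mast cell hits made up 1.75% and 0.824%, against 2.66% and 2.56%. Leaving out haemoglobin, 153 (19.1%) and 142 (19.5%) macrophages were hits of any lineage. Tbx5 and Pitx1, factors of forelimb and hindlimb mesenchyme, followed the surrounding limb. Tbx5 stood at 14.1 CPM in forelimb and 1.38 CPM in hindlimb macrophages, and Pitx1 at 0.332 and 13.4 CPM. In the other cells Tbx5 stood at 53.9 and 2.96 CPM and Pitx1 at 1.01 and 66.3 CPM. No doublet caller was run, and cells with such hits were left out in an alternative.

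Among the limb macrophages Lyve1 and Ccr2 were seldom detected in the same cell. Lyve1, a hyaluronan receptor of perivascular resident macrophages, stood at 284 CPM (271 to 298) in the forelimb and 313 CPM (298 to 327) in the hindlimb. Among cells with at least 2000 UMIs, 714 in the forelimb and 666 in the hindlimb, it was detected in 36.5% and 34.8%. F13a1 was detected in 96.9% and 98.3% of the cells with Lyve1, and in 70.2% and 70.3% of those without. Ccr2, the receptor that brings monocytes into tissue, went the opposite way, in 1.92% and 3.02% of cells with Lyve1 and in 38.2% and 38.0% of cells without. Plac8 was detected in 64.6% and 65.7% of cells with Ccr2 and in 3.73% and 5.87% of cells without. Of the deeper cells, 261 in the forelimb held Lyve1, 178 held Ccr2 and 5 held both. In the hindlimb the counts were 232, 172 and 7, so many cells of each limb held neither gene. Both limbs gave the same shares to within a few percentage points. These co-detections are across cells of 1 library each and are descriptions, and deeper cells detect more of every gene.

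The same 1530 cells were clustered on their variable genes, which gave 12 clusters referred to here by number. Genes of the other-lineage lists and mitochondrial genes were left out of the clustering. Lyve1, Ccr2 and Plac8 were not on those lists, so their levels by cluster are no separate check of the co-detections. Cluster 1, the largest with 166 forelimb and 157 hindlimb cells, was led by Ccl7 at 869 CPM against 172 CPM in the rest, with Gm13266, Ccl2, Slc39a12 and Ccl3. Lyve1 stood there at 674 CPM against 203 CPM. Cluster 5, with 72 and 80 cells, shared high Lyve1 at 496 CPM but held Ccl7 at 160 CPM, and was led by C9, heat shock genes and Cd163, the haemoglobin scavenger receptor, at 59.6 CPM. In cluster 3, with 117 and 110 cells, Lyve1 was at 0 of its UMIs. It was led by Plac8 at 947 CPM against 81.6 CPM and Ccr2 at 535 CPM against 50.6 CPM, and held Lyz2 at 4478 CPM. Its C1qa, at 554 CPM, was far below the 1616 CPM of cluster 1.

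Cluster 7, with 79 and 60 cells, combined lysosomal and lipid genes. Apoc1 stood at 327 CPM against 49.3 CPM in the rest, Spp1, or osteopontin, at 375 CPM against 68.2 CPM, and Hmox1 at 1260 CPM against 251 CPM. Gpnmb, a glycoprotein of lipid-laden macrophages, stood at 87.8 CPM against 16.4 CPM. Apoe and C1qa reached 18908 and 2479 CPM there, their highest among the 12 clusters. Lyve1 was low at 48.2 CPM. Cluster 10 was small, with 12 cells from each limb, and was led by S100a8 at 5584 CPM against 30.6 CPM and Ly6c2, a monocyte surface antigen, at 813 CPM against 3.76 CPM. C1qa and Pf4 were at 0 in it.

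Cluster 2, with 127 forelimb and 101 hindlimb cells, held high levels of division genes. Its 3 leading genes by fold, however, were Camp and Ngp, both of granulocytes, and Cstdc5, at 46.7, 39.0 and 47.1 CPM against at most 2.73 CPM in the rest. These came mostly from the hindlimb, whose macrophages held 111, 92 and 124 of their UMIs, against 6, 1 and 12 in the forelimb. Mki67, a marker of cells in cycle, stood there at 615 CPM against 94.2 CPM in the rest, and Top2a, the topoisomerase of replicating cells, at 645 CPM against 105 CPM. Across all members with at least 2000 UMIs, Mki67 was detected in 39.9% of forelimb and 38.3% of hindlimb macrophages. After each cell was thinned to 2000 UMIs the shares were 20.8% and 19.1%, against 12.8% and 12.6% in the other limb cells. Top2a gave 19.4% and 18.8% against 17.3% and 16.4%. As a class, 20 division genes had a median fold of 1.08 over the other limb cells, and of the 11 at 100 CPM or more none was 4-fold above.

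The remaining clusters were led by genes of other lineages. Clusters 4 and 8 held mesenchymal collagen, with Col1a1 at 2390 and 2826 CPM and median UMIs of 12280 and 13093. Cluster 6 was shallow, with a median of 1150 UMIs, and held Hbb-bs, a beta globin, at 42045 CPM. Cluster 9 held 25 cells, all from the hindlimb, and was led by cornified skin genes such as Lor. Cluster 11 was led by muscle genes, with Myog at 456 CPM, and cluster 12 by mast cell genes, with Cpa3 at 7278 CPM. C1qa, on which the members were chosen, was present in clusters 4, 6, 8, 9, 11 and 12, at 338 to 1469 CPM. Its presence there follows in part from the rule that chose the cells. Cell type names are not given to these clusters.

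**Figure D3:**
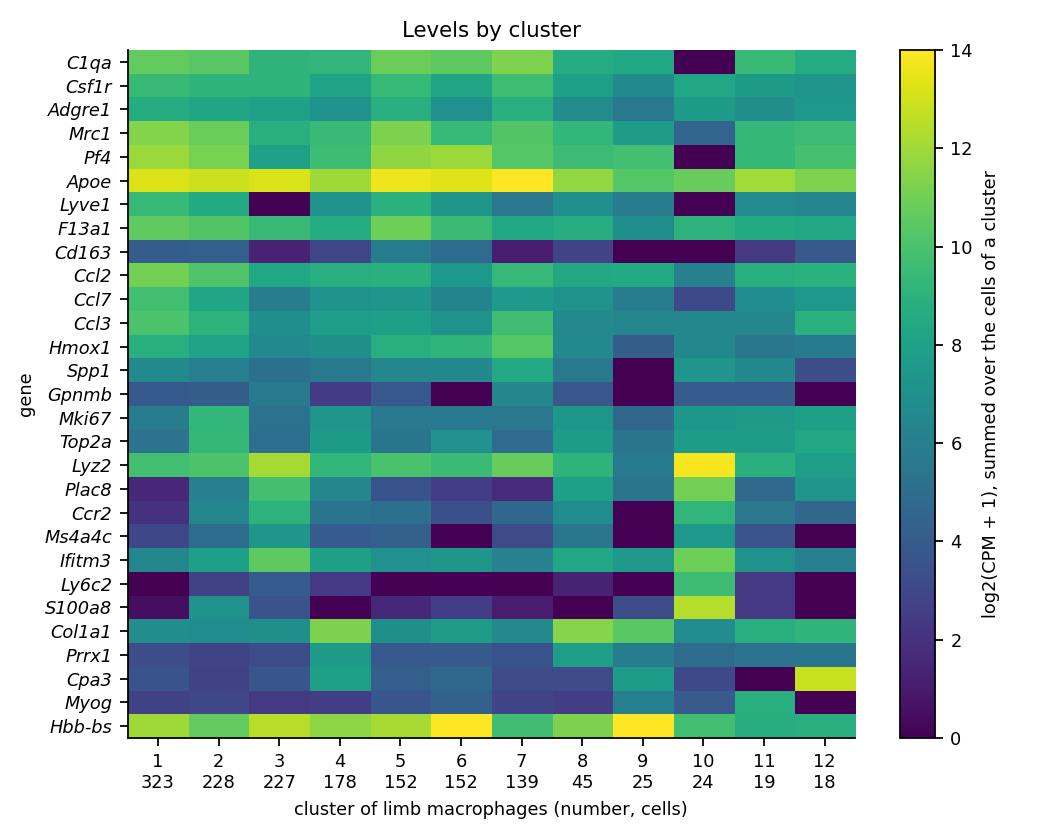
Levels of 29 genes, as log2(CPM + 1) summed over the cells of a cluster, in the 12 clusters of limb macrophages, with the number of cells under each cluster number. The color scale ends at 14, which Apoe in cluster 7 and Hbb-bs in clusters 6 and 9 exceed; Lyve1 is absent from clusters 3 and 10, where Plac8, Ccr2 and Lyz2 are high, and Mki67 and Top2a peak in cluster 2.

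Gm13266 was restricted to macrophages although it is no known macrophage gene. It is a non-coding processed transcript at chr2:14512591-14542811 on the plus strand, 17613 bases downstream of Slc39a12, which encodes a zinc transporter and lies at chr2:14388316-14494977 on the same strand. Mrc1 lies 56258 bases before Slc39a12 on that strand. Gm13266 stood at 133 CPM in forelimb and 146 CPM in hindlimb macrophages, against 0.206 and 0.164 CPM in the other limb cells, and the macrophages held 96.4% and 97.1% of its UMIs. Slc39a12 stood at 307 and 314 CPM against 0.638 and 0.611 CPM. Gm13266 was detected in 59.0% and 60.8% of the deeper cells with Lyve1 and in 23.4% and 20.7% of those without.

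Crybb1 and Cryba4 gave a second neighbouring pair. They encode lens crystallins, and Crybb1 is also a gene of early microglia. They lie head to head on chromosome 5, at chr5:112255815-112269585 and chr5:112246493-112252518, with 3296 bases between them. Crybb1 stood at 32.7 and 40.6 CPM in the macrophages and Cryba4 at 61.9 and 71.2 CPM. Among the deeper cells, Cryba4 was detected in 53.9% and 60.0% of those with Crybb1 and in 26.2% and 30.5% of those without.

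Forelimb and hindlimb macrophages were close in nearly every gene. Of 9873 genes with at least 50 UMIs in the higher library, 8474 (85.8%) lay within a ratio of 5 to 4. Only 63 (0.638%) were 2-fold or more higher in the forelimb and 44 (0.446%) in the hindlimb, and with 1 library per limb none of these differences has a test. Of the 63, 4 were macrophage-enriched, and of the 44, 12, standing at least 2-fold above the other cells of their library. The share of all 9873 genes that stood so was not counted, so these counts are descriptions. Mcpt4, a mast cell protease, stood at 27.9 CPM in forelimb and 0.860 CPM in hindlimb macrophages, and Lor, a skin gene, at 3.15 and 154 CPM. Cluster 12 held 159 Mcpt4 UMIs, where all forelimb macrophages held 168 and all hindlimb macrophages 5. Tbx5 and Pitx1 differed as given above. The 4 genes of the forelimb, named after their values were seen, were Ifit1, Ifit3, C9 and Gm43661. Of these the interferon-induced Ifit1 stood at 8.29 CPM (6.16 to 10.9) against 2.07 CPM (1.07 to 3.61), and Ifit3 at 10.9 CPM (8.47 to 13.9) against 2.93 CPM (1.70 to 4.68). The 12 genes of the hindlimb were Ngp, 2310034C09Rik, Gm20741, Krtap13, Lor, Crct1, 4930553J12Rik, Lcn2, S100a9, Cstdc4, Gm15655 and Esr1. Ngp and Lcn2 are granulocyte genes, and Ngp had 92 UMIs in the hindlimb and 1 in the forelimb. Cluster 2 held 91 Ngp UMIs. The 25 cells of cluster 9, all from the hindlimb and with a median of 4 selection genes, held 690 of the 898 hindlimb UMIs of Lor. They also held 82 of 82 of Gm20741, 68 of 72 of 4930553J12Rik, 54 of 59 of Crct1, 51 of 65 of Krtap13 and 62 of 88 of 2310034C09Rik. When cells with RNA of another lineage were left out, 22 genes differed by 2-fold, 11 in each direction. The macrophages then held only 2719380 and 2735489 UMIs in forelimb and hindlimb. The minimum of 50 UMIs stayed the same, so fewer genes could reach it, and the counts are not on equal terms.

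**Figure D4:**
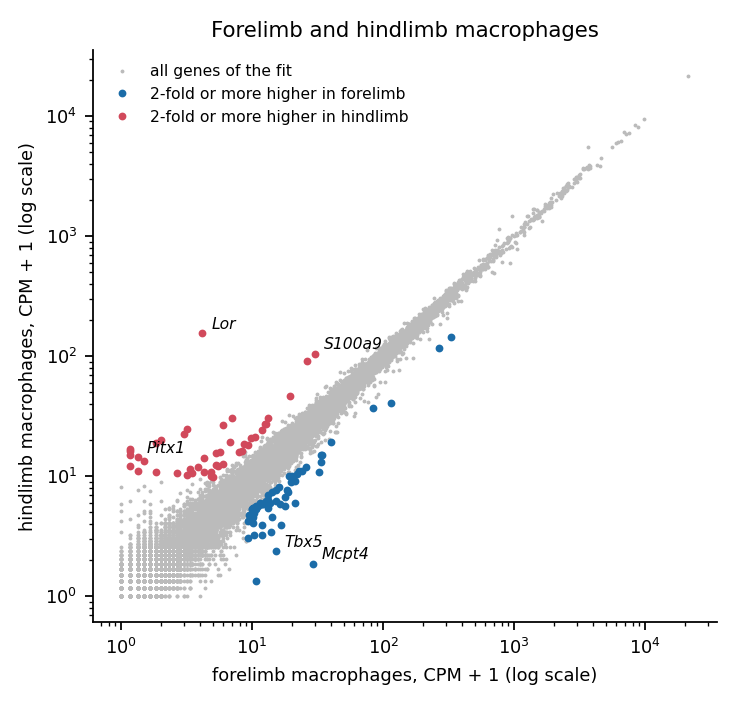
Each gene in forelimb (x) and hindlimb (y) macrophages, as CPM plus 1 on log scales. Most of the 9873 genes with at least 50 UMIs lie along the diagonal; the 63 genes 2-fold or more higher in the forelimb (blue) and the 44 higher in the hindlimb (red) are mostly low, with Lor, Pitx1, Tbx5 and Mcpt4 far from it.

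The same 8 genes picked 152, 152 and 108 macrophages in the 3 penis libraries, or 2.23%, 2.14% and 1.89% of kept cells, each below both limb shares. The mean share was 3.07% ± 0.0419 (SD, n = 2) in limb and 2.09% ± 0.178 (SD, n = 3) in penis, a difference of 0.984 percentage points. A two-sided exact permutation test gave p = 0.2, which is the smallest p this design allows. Penis cells were kept with 500 to 6000 genes and at most 5% mitochondrial UMIs. Under that 5% limit in the limbs the difference was 0.340 points, and with cells holding RNA of another lineage left out it was 0.276 points.

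Limb and penis macrophages differ in tissue, in age and in any feature of preparation, and these cannot be told apart. The limits on kept cells differed too, as given above. The macrophages also differ in makeup. Of the penis members 46.0%, 38.8% and 44.4% held exactly 4 selection genes, and these cells held Lyz2 at 8093 to 9176 CPM and Plac8 at 2529 to 3186 CPM. They also held Treml4 and Ace, genes of patrolling monocytes, at 209 to 309 and 129 to 160 CPM. Only 57, 64 and 45 penis members held 7 or 8 of the genes. Main results are therefore also given for the cells with 7 or more, an alternative added after the data were seen.

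UMIs were summed per library over macrophages and compared, 2 limb against 3 penis libraries, with edgeR's quasi-likelihood test and Benjamini-Hochberg adjustment. A gene was called at an adjusted p below 0.01 and an absolute log2 fold-change over 1. The limb group is 1 forelimb and 1 hindlimb library, and whether these came from separate embryos is not stated, so p-values measure the spread between these libraries only. Of 10939 genes, 367 (3.35%) were higher and 785 (7.18%) lower in limb macrophages. Leaving out either limb library lowered the calls in both directions from 1152 to 613 or 588. In cells with 7 or more of the genes, 334 (3.76%) were higher and 416 (4.68%) lower among 8885. Macrophage-enriched genes were those at least 2-fold above the other cells in every library of the higher group: 72 of the higher and 393 of the lower. Because the filter used only the group where a gene was high, these counts are descriptions. With 7 or more genes 71 of the 72 could be tested and 42 were called, and 265 of the 393 could be tested and 145 were called. Over all called genes, enriched or not, 176 of the 367 higher and 273 of the 785 lower kept their call there. A second fit compared macrophages with the other cells of each library and asked whether that difference was itself larger or smaller in limb than in penis. It called 278 of 20315 genes (1.37%) higher and 415 (2.04%) lower in limb, and is named the relative fit below. In cells with 7 or more genes its balance turned over, to 711 higher and 197 lower. In that setting members with fewer than 7 genes were counted among the other cells, so both sides of the fit changed. Counts of called list members below are to be set beside these shares over all genes.

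The 8 selection genes, on which the members were chosen, are given by their levels only. C1qa stood at 1348, 1480 and 1362 CPM in penis and at 1188 and 1197 CPM in limb macrophages. Pf4 stood at 2407 to 2674 CPM in penis and at 1949 and 1937 CPM in limb and was not called, with a log2 fold-change of -0.41, but in cells with 7 or more genes it fell by 1.06 and by the relative fit it was higher by 3.03. Apoe was at 7373 to 8674 CPM in penis and 8395 and 8397 CPM in limb.

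Among macrophage-enriched genes Gm13266 gave the largest rise in limb macrophages. It had 0.716, 0.670 and 0 CPM in the penis libraries and 133 and 146 CPM in the limb libraries, with no overlap. In UMIs these were 2 in all penis macrophages against 1650 in limb, a ratio of 271 with a 95% counting interval of 74.9 to 2241. Its log2 fold-change was 7.94 ± 0.29 (SE), with an adjusted p of 1.76e-07 by edgeR's quasi-likelihood test, and 7.33 in cells with 7 or more genes. Its neighbour Slc39a12 rose from 75.1, 89.1 and 57.0 CPM to 307 and 314 CPM, by 2.01 ± 0.14 on the log2 scale (edgeR adjusted p = 3.87e-06). Mrc1, a selection gene further upstream, stood at 862 to 1015 CPM in penis and 1443 and 1478 CPM in limb.

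Crybb1 and Cryba4 rose together. Crybb1 stood at 2.86, 4.02 and 4.00 CPM in penis and at 32.7 and 40.6 CPM in limb, a log2 fold-change of 3.29 ± 0.27 (SE; edgeR adjusted p = 1.20e-05). Cryba4 stood at 12.2, 8.04 and 12 CPM against 61.9 and 71.2 CPM, a log2 fold-change of 2.61 ± 0.20 (edgeR adjusted p = 7.61e-06). Both were called with each library left out in turn and in cells with 7 or more genes. By the relative fit neither was called, with log2 values of 0.91 and -1.13.

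Lyve1 rose in limb macrophages. It stood at 80.1, 34.8 and 54.0 CPM in penis and 284 and 313 CPM in limb, a log2 fold-change of 2.37 ± 0.20 (SE; edgeR adjusted p = 1.58e-05). In cells with 7 or more genes it was 1.86. The shares of deeper cells with Lyve1 were 12.03%, 8.15% and 6.12% in penis against 36.5% and 34.8% in limb. F13a1 rose by 1.20 on the log2 scale, from 338 to 465 CPM to 895 and 986 CPM, but by 0.68 in cells with 7 or more genes, which was not called. Cd163 went the other way, at 47.9, 24.1 and 38.0 CPM in penis and 15.8 and 13.1 CPM in limb, a log2 fold-change of -1.37. That call was lost without penis library 3, the forelimb or the hindlimb. Over 10 tested genes of the resident set, 2 rose and 1 fell, with a median log2 fold-change of 0.52 against -0.02 over all genes tested. In cells with 7 or more genes 1 rose and 1 fell, and the median turned to -0.12.

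Further genes that rose included Mir155hg, the host transcript of the inflammatory miR-155, with a log2 fold-change of 3.07, and Cd28, best known as a T cell co-receptor, with 2.81. Rcan1, an inhibitor of calcineurin, rose by 2.37 and Zc3h12c, an RNA-binding protein that restrains NF-kB signalling, by 2.16. All 4 were also called in cells with 7 or more genes. By the relative fit Mir155hg, Rcan1 and Zc3h12c were called and Cd28, with a log2 value of 2.53, was not. Of 20 tested chemokines and receptors 3 rose, Ccl3, Ccl4 and Cxcl1, and 4 fell, Ccl6, Cxcl16, Ccr2 and Cxcr4. Over all genes tested 3.35% rose and 7.18% fell, and with 7 or more genes 3.76% and 4.68%. In cells with 7 or more genes only Ccl4 and Cxcl1 rose, and Ccl8, Ccl12, Cxcl16 and Pf4 fell. By the relative fit Ccl3, Cxcl1, Cxcl2, Cxcl12 and Pf4 were higher and Ccl12 and Cxcr4 lower. Ccl4 rose from 330, 194 and 222 CPM to 691 and 624 CPM, by 1.36 on the log2 scale. Of 20 immediate early and heat shock genes 4 were lower in limb, Fos, Jun, Dusp1 and Hspa1b, and with Hspa1a 5 were in cells with 7 or more genes. Klf2 alone was lower by the relative fit. None was higher in any of these fits. The median mitochondrial share was 4.52% and 4.31% in limb macrophages and 2.03% to 2.17% in penis macrophages. The limit on that share was lower for penis than for limb cells, as given above. The medians are therefore not on equal terms, and their difference follows in part from the limits. The part of the immediate early and heat shock genes, or of the mitochondrial share, in the chemokine values was not tested. Ccl2 and Ccl7 were not called, with log2 fold-changes of 0.47 and 0.30. Il1rn, the interleukin-1 receptor antagonist, rose by 1.42, and that call was lost without either limb library.

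Genes of antigen presentation by MHC class II fell together. Class II molecules display peptides to helper T cells, and macrophages raise them when activated or as they mature. Of 9 tested genes 7 fell and none rose, with a median log2 fold-change of -3.42 against -0.02 over all genes. H2-Aa, the alpha chain of I-A, stood at 620, 275 and 459 CPM in penis and 27.4 and 23.4 CPM in limb, a log2 fold-change of -4.18 ± 0.30 (SE; edgeR adjusted p = 4.58e-06). H2-Ab1 fell by 4.37 and H2-Eb1 by 4.46 on that scale. Cd74, the invariant chain that guides class II to endosomes, stood at 1383, 741 and 950 CPM against 108 and 92.2 CPM, a log2 fold-change of -3.39. Ciita, the master activator of the class, stood at 14.3, 7.37 and 5.00 CPM against 0.829 and 0.860 CPM. Its call was lost without either limb library. The costimulatory gene Cd86 was not called, with a log2 fold-change of 0.36.

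The class II fall was also found in cells with 7 or more selection genes. There 6 of 8 tested genes fell and Cd80, a costimulatory gene, rose by 1.00 on the log2 scale. H2-Aa stood at 362, 64.5 and 375 CPM in penis and 6.22 and 3.83 CPM in limb. Penis library 2 held less than the other penis libraries, but stayed above both limbs. Among penis members H2-Aa stood at 2657, 1222 and 2315 CPM in the 14, 18 and 8 cells with 5 selection genes, and at 342, 68.4 and 229 CPM in the 49, 56 and 39 cells with all 8. The summed level of the 7 dendritic cell genes was 131, 114 and 118 CPM in penis against 45.5 and 43.4 CPM in limb, and of 4 tested 2 were lower, Cd209a and Clec10a. None of these genes was called by the relative fit. The part of dendritic cell RNA in the class II result was not tested. Within the limb, H2-Aa was detected in 1.96% and 1.80% of the deeper macrophages, against 14.3%, 10.4% and 9.18% in penis. By cluster it stood at 97.96 CPM in cluster 8, 96.99 CPM in cluster 3 and 46.5 CPM in cluster 4, and at 0.417 CPM in cluster 1. Other limb cells held most of its UMIs, as macrophages carried only 14.7% and 13.9%.

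The stretches around the transcript start of H2-Aa and H2-Eb1, also 300 bases from RefSeq (GRCm38.p6), are shown because these genes fell together. Each held the 8 letters CTGATTGG of the Y box, an element described in class II promoters and bound by the factor NF-Y. The letters began 51 bases before the start in H2-Aa and 62 before it in H2-Eb1. They were searched on both strands, as CTGATTGG or CCAATCAG, and occur in 4.097% of the 32851 stretches. The same letters were in 6 of the 9 class I genes that had a stretch. Of 11 class II genes 6 had a stretch and 3 of these held the letters, H2-Aa, H2-Eb1 and H2-Oa. Capitals mark the match. H2-Aa is from chr17:34287774-34288073 on the minus strand and H2-Eb1 from chr17:34305617-34305916 on the plus strand, both written 5′ to 3′.
H2-Aa: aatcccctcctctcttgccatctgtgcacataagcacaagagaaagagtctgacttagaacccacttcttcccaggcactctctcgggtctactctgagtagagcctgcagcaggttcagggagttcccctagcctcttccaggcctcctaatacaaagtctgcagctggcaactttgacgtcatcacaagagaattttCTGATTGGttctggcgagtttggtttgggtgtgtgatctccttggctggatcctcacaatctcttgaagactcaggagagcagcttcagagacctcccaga
H2-Eb1: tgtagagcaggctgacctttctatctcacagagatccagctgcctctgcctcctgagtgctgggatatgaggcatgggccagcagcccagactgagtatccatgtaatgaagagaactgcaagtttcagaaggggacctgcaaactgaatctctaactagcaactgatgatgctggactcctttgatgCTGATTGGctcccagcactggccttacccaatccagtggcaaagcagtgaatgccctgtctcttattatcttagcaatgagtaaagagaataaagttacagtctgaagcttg

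MHC class I, which presents peptides made within the cell, was lower too, by less. Of 10 tested genes 8 fell, with a median log2 fold-change of -1.23, and the same count fell in cells with 7 or more selection genes. H2-K1 stood at 612, 564 and 600 CPM in penis and 204 and 191 CPM in limb, a log2 fold-change of -1.62 ± 0.095 (SE; edgeR adjusted p = 1.40e-06). B2m, the light chain, stood at 1420, 1519 and 1463 CPM against 752 and 718 CPM, and its call was lost without penis library 2 or the hindlimb. The other cells moved with them. H2-K1 stood at 31.8 to 35.8 CPM in the other penis cells and at 16.1 and 13.9 CPM in the other limb cells. By the relative fit 1 of 10 class I genes was lower, H2-Q7, and 1 was higher, Psmb9, whereas the 7 class II genes were still lower.

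Scavenger and lectin receptors were lower as well. Of 16 tested genes 9 were lower and none higher, with a median log2 fold-change of -1.30, and 8 of 15 were lower with 7 or more selection genes. Over all genes tested 7.18% were lower, and 4.68% with 7 or more selection genes. The list includes Mrc1, a selection gene, which was not called. By the relative fit 1 of 18 was lower, Lgals3, and 1 was higher, Colec12. Clec4n, a lectin receptor for fungal mannans, stood at 230, 158 and 237 CPM in penis and 83.1 and 82.4 CPM in limb, a log2 fold-change of -1.36. Clec10a, a galactose-binding lectin, fell by 1.78 and Lgals3, or galectin-3, by 1.66 on the log2 scale. Cd209f, a lectin of resident macrophages, had 38 UMIs in penis, 23 of them in penis library 3, and none in limb, and its call was lost without either limb library. Marco, a receptor for bacteria, stood at 22.2, 21.4 and 281 CPM in penis, so that penis library 3 decided its mean, and its call was lost without that library or either limb library.

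Ace stood at 55.8, 54.9 and 66.0 CPM in penis and 0.498 and 0.688 CPM in limb, Treml4 at 128, 92.4 and 96.0 CPM against 4.48 and 3.44 CPM, and S1pr5, a sphingosine phosphate receptor, at 15.7, 16.1 and 19 CPM against 0.166 and 0 CPM. None of these 3 could be tested in cells with 7 or more genes. Of 7 tested monocyte genes 4 fell, Ccr2, Ly6c2, Plac8 and F10, and of the 4 that could be tested in those cells none was called. Plac8 changed sign there, from a log2 fold-change of -2.71 to 0.72. Lyz2, in contrast, fell in both, by 1.98 among all members and by 2.01 with 7 or more genes. The lysosomal genes Ctss and Psap also fell, by 1.14 and 1.27, and the other 25 of 28 lysosomal genes were not called. Over all genes tested 7.18% were lower, and 4.68% with 7 or more genes. With 7 or more genes 7 of the 28 fell, and by the relative fit 1 was lower, Lyz2, and 1 higher, Ctsl. The transcription factor Klf4 fell by 1.21.

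**Figure D5:**
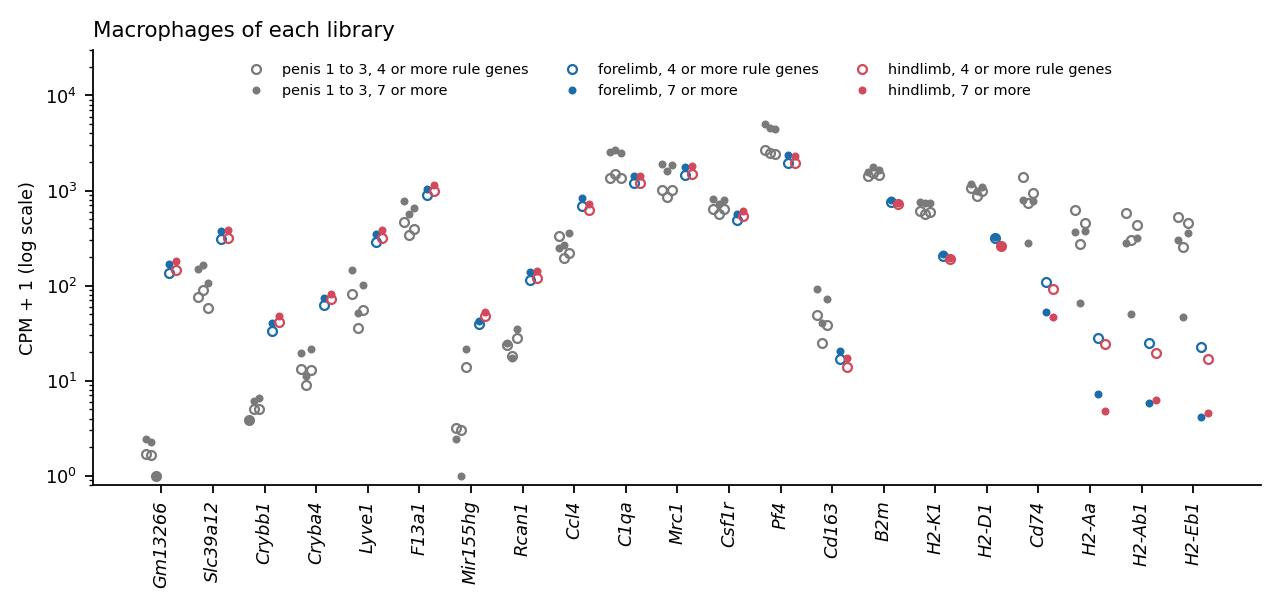
Levels of 21 genes in the macrophages of each library, as CPM plus 1 on a log scale, for all members (open circles) and for cells with 7 or more selection genes (filled circles). Gm13266, Slc39a12, Crybb1, Cryba4 and Lyve1 are higher in both limb libraries than in all 3 penis libraries, class I and class II genes are lower in both, and C1qa, Mrc1, Csf1r and Pf4 differ by less than 2-fold among all members.

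Division and fetal genes were higher in limb macrophages. Of 20 division genes 11 rose and none fell, with a median log2 fold-change of 1.15, but 2, Ccnb1 and Ube2c, were called in cells with 7 or more selection genes. Mki67 stood at 55.8, 98.4 and 56.0 CPM in penis and 203 and 190 CPM in limb, a log2 fold-change of 1.42. Of 13 tested fetal and imprinted genes 10 rose, and 12 did in cells with 7 or more genes. Igf2bp1, a fetal RNA-binding protein, stood at 3.58, 0.670 and 1.00 CPM against 69.7 and 75.5 CPM, a log2 fold-change of 5.26 ± 0.32 (SE; edgeR adjusted p = 1.73e-06). Hmga2, a chromatin protein of embryonic cells, rose by 3.42. Both classes were also higher in the other limb cells than in the other penis cells: Igf2bp1 stood there at 104 and 110 CPM against 6.01 to 6.73 CPM, and Mki67 at 133 and 136 CPM against 48.5 to 62.9 CPM. By the relative fit none of the 20 division genes and none of the 14 fetal genes was higher, and 1 fetal gene, Igf2bp3, was lower.

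Genes of some other lineages also differed between limb and penis macrophages. Of 5 tested mast cell genes 4 were higher in limb macrophages, of 7 tested cartilage genes 6, and of 5 tested muscle genes all 5. The summed mast cell level was 4.69 to 16.5 CPM in penis and 763 and 318 CPM in limb macrophages. The 18 cells of cluster 12 held 1549 Cpa3 UMIs, where all forelimb and hindlimb macrophages held 1606 and 670. The 19 cells of cluster 11 held 115 Myog UMIs, where all forelimb and hindlimb macrophages held 139 and 58. The summed mesenchyme level overlapped, at 2672 to 3448 CPM in penis and 3024 and 2267 CPM in limb. The part of such RNA in the results above was not tested. With cells holding RNA of another lineage left out, the calls of Gm13266, Crybb1, Cryba4, Lyve1, Slc39a12, H2-Aa and H2-K1 kept their direction.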

How the data were processed

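Per the labels and the study's methods, libraries were made with 10X Genomics 3' chemistry, and the authors aligned reads to mm10 and deposited raw UMI counts per gene and cell from Cell Ranger 7.0.0, with 32285 genes per matrix. No cell annotation was used. The 8 selection genes and all gene lists were chosen with earlier results of these data known. Cells were kept by detected genes and mitochondrial share. The limits took numbers from the study, which words the minimum and maximum as reads per cell and sets a higher maximum for the hindlimb. Its further limit on genes per UMI was not applied and was run as an alternative, which left 799 and 725 limb macrophages. No doublet caller was run. Counts were summed over the macrophages, and over the other kept cells, of each library. Limb and penis sums were compared with edgeR 4.0.16 (quasi-likelihood test, R 4.3.3), and the relative fit used library as a block. Calls needed an adjusted p below 0.01 and an absolute log2 fold-change over 1, limits the study also used, without its further limits on the share of cells with a gene. Named genes were the 30 with the greatest folds over other limb cells, the 8 with the greatest folds in each direction between limbs, the 15 macrophage-enriched genes with the greatest folds in each direction between limb and penis, and list members. Macrophages were clustered with leidenalg 0.10.2 on 1500 variable genes, without mitochondrial genes and genes of other lineages. Self-tests of the fits used data simulated from values estimated on these counts. Alternatives were DESeq2 1.42.0, other filters, other numbers of selection genes, thinning to 2000 UMIs, and leaving out each library. The setting of 7 or more genes, and the 5% mitochondrial limit in those fits, were added after the data were seen. Intervals were exact Poisson or binomial at 95%.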

Additional observations from a re-analysis of the deposited data

Results flagged for a closer look

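The difference between macrophages and the other cells of a library itself differed between limb and penis for 693 of 20315 genes in the relative fit (quasi-likelihood test of edgeR, Benjamini-Hochberg adjusted). Among the named genes that were higher, the log2 values were 7.00 for Gm13266, 3.96 for Mir155hg, 2.55 for Lyve1, 1.97 for Zc3h12c, 1.76 for Rcan1 and 1.27 for Slc39a12. Among those that were lower, they were -5.78 for S1pr5, -5.73 for Gm17023 and -2.65 for Ace. The class II genes gave -3.16 for H2-Eb1, -2.98 for H2-Ab1, -2.90 for H2-Aa and -2.03 for Cd74. S1pr5 rested on 1 UMI in limb macrophages. With 2 limb libraries, no group was large enough for a check of single outlying libraries.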

How the results depend on the processing

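The count of genes called between limb and penis macrophages was 1152. It was 732 with 5 or more selection genes, 750 with 7 or more, 762 when the rule was applied after thinning to 2000 UMIs, and 588 to 1132 with 1 library left out, the low values without a limb library. Fewer cells and libraries enter these fits by construction. The relative fit called 693 genes, 1136 without a filter on low counts and 1293 with cells holding markers of another lineage left out, and the cause was not tested. Its split of higher against lower calls was 278 against 415, but 339 against 213 with 5 or more genes, 711 against 197 with 7 or more, 668 against 257 after thinning and 727 against 566 with mixed cells left out. With more genes required or after thinning, members that no longer passed were counted among the other cells. Higher calls also outnumbered lower ones without a count filter, with limb limits for every library, with the limit on genes per UMI and without penis library 3. The count of genes 2-fold apart between forelimb and hindlimb was 107, and became 330 at a minimum of 20 UMIs, 43 at 100 UMIs and 22 with cells of mixed lineage left out. Direction reversed for 4 genes between limb and penis: Bhlhe40 had log2 fold-changes of 0.15 with 5 or more genes and 0.66 with 7 or more, Plac8 0.72 and Fn1 1.59 with 7 or more, and Krt15 0.20 with cells of mixed lineage left out. Between limbs Crct1 reversed, to 0.0036, in that last setting. The cause was not tested. The share of macrophages was higher in limb under every alternative run, by 0.276 to 1.62 points. Of the values of named genes between limb and penis, 661 kept their call and 126 lost it with 1 library left out. In other settings 1275 kept it and 207 lost it. Of the folds of named genes over the other limb cells, 134 moved by more than the spread between both limbs and 106 did not, and none reversed. No paired analysis was possible because the limb libraries came from embryos and the penis libraries from postnatal males, which are different animals. Low genes are limited by depth, as 3 UMIs is the floor of a library.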
